A study of Rattus norvegicus with 84 samples.

Results

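A set of 10 genes that restrain the cell cycle or respond to p53 was followed in the rat RNA-seq libraries, out of 17502 loci in the deposited tables. They were taken by symbol as Cdkn1a, Cdkn2a, Cdkn1b, Cdkn1c, Mdm2, Ccng1, Gdf15, Bax, Gadd45a and Gadd45g, and each symbol stood on 1 row. The study sequenced total RNA of 3 tissues, the kidney, the liver and the gastrocnemius (a calf muscle), taken from males of the outbred Sprague Dawley rat strain. Young rats received vehicle by mouth each day for 6 weeks from 4.5 months of age and were read out at 6 months (10 libraries per tissue). Aged rats received the same vehicle from 22.5 months and were read out at 24 months (10 libraries per tissue). Treated aged rats, of the same ages as the aged group, received RAD001 once a week (7 doses) and vehicle on the other days (8 libraries per tissue). RAD001 is everolimus, a rapalog that inhibits the kinase complex mTORC1. The labels name neither a transgene nor a deletion, and they do not say which libraries come from 1 rat, so each p-value rests on the spread of libraries, which may be partly technical.

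Cyclin-dependent kinases drive cells into and through division, and their inhibitors hold them back. The transcription factor p53, stabilised by DNA damage and other stress, switches on the inhibitor p21 together with genes of growth arrest, apoptosis and its own breakdown. p21 and p16 are widely used as marks of senescent cells in ageing tissue, and in skeletal muscle p21 and Gadd45a are also known to rise after loss of the nerve supply.

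The promoters of 4 genes are shown, because Cdkn1a and Gadd45a rose together in aged muscle, Ccng1 rose in aged kidney and liver, and Gadd45g varied widely among libraries of a group in kidney and liver. The sequences come from RefSeq (assembly GRCr8; promoter entries matched 8 of the 10 symbols, and Cdkn1c and Bax had none), each read 5′ to 3′ on the gene's strand and ending before the gene's first annotated base. Capitals mark matches to the consensus p53 half-site, the 10-base element of which a full p53 site holds a pair, searched on both strands.
Cdkn1a, chr20:7150682-7150819, plus strand: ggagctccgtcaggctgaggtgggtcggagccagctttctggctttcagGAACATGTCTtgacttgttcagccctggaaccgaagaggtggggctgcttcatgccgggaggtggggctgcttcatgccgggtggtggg
Gadd45a, chr4:97486800-97487049, minus strand: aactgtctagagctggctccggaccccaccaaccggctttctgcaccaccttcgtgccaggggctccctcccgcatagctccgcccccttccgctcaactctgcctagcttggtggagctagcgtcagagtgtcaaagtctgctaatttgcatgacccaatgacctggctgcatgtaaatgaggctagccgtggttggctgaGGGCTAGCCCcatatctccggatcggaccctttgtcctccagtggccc
Ccng1, chr10:25684877-25685126, minus strand: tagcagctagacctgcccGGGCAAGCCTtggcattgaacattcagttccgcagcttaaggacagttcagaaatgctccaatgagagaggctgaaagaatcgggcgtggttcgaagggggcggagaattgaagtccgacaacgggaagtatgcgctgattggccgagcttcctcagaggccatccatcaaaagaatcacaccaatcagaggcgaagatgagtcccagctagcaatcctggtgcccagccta
Gadd45g, chr17:13530352-13530601, minus strand: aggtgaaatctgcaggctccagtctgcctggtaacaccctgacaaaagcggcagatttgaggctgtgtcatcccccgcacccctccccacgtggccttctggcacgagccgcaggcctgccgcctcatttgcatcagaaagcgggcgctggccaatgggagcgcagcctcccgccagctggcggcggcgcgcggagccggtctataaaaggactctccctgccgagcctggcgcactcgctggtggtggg

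A half-site match stood in the first 250 bases of 3 of the 8 promoters, those of Cdkn1a, Gadd45a and Ccng1, against 6.64% of all 33469 promoters in the table. For Cdkn1a only 138 bases are printed, because its entry reaches the gene's first annotated base after that length, and 3.94% of all promoters held a match over it. The match in the Cdkn1a promoter reads GAACATGTCT, that of Gadd45a GGGCTAGCCC and that of Ccng1 GGGCAAGCCT. A match is a description of the letters in this window and not a site of binding.

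Values are given as scaled levels: the deposited mean read coverage per base of a gene's exons, on a relative scale, divided by a factor per library computed within its tissue. Changes are differences on log2(scaled level + 0.1), which understates changes of low genes, with adjusted p-values from limma over all genes tested in the tissue. A gene counts as called at an adjusted p under 0.05. Relative sequencing depth ran from 0.801 to 1.37 over the 84 libraries, a 1.71-fold range, and the libraries held 11697 to 13767 loci above 0. The number of reads is unknown, so no counting interval is given. The 7 defining markers of each tissue all passed the low-value filter in their own tissue. In kidney 4 of them were lower in aged libraries, in liver 3 and in gastrocnemius 5, and none was higher. Over all genes 43.0%, 16.6% and 35.4% were called with age in these tissues, in either direction. In whole tissue, fewer cells of a type and less RNA per cell cannot be told apart.

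In gastrocnemius, the inhibitors p21 and p57 were higher in aged than in young rats, and Gadd45a rose with them. Cdkn1a (chromosome 20, 8592436 to 8602879, plus strand, rn5), which encodes p21, stood at 0.122, 0.215 and 0.277 (lowest, median and highest library) in the young group. In the aged group the lowest, median and highest scaled levels were 2.20, 3.91 and 6.13, and in the treated aged group 2.66, 4.55 and 8.01. Every aged and every treated library lay above every young one, while the aged and treated groups overlapped over most of their range. The log2 change with age was 3.73 (SE 0.173, adjusted p = 1.44e-16), a 13.3-fold rise. Treated minus aged was 0.23 (SE 0.184, 95% interval -0.14 to 0.61, adjusted p = 0.493), and treated minus young was 3.96 (adjusted p = 4.19e-16).

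Gadd45a (chromosome 4, 162568471 to 162570774, minus strand, rn5), a stress-inducible protein that binds PCNA and p21 and acts on MAP kinase signalling, moved in the same libraries. Its scaled levels in gastrocnemius were 0.273, 0.329 and 0.418 in the young, 1.14, 2.66 and 4.24 in the aged and 1.20, 2.15 and 3.77 in the treated group. Again the young group lay wholly below the other groups. The change with age was 2.59 (SE 0.191, adjusted p = 8.43e-12), 6.01-fold, and treated minus aged was -0.14 (95% interval -0.55 to 0.27, adjusted p = 0.735). Aged libraries 1 and 4 held the highest Cdkn1a levels of their group, 6.13 and 5.87, and also the highest Gadd45a levels, 4.24 and 3.99. Aged library 3 held the lowest of both, 2.20 and 1.14. After the group means were taken out, log2 levels of Cdkn1a and Gadd45a correlated at r = 0.88 over the 28 libraries, a description of libraries that share depth and tissue make-up.

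Cdkn1c (chromosome 1, 223521097 to 223523972, minus strand, rn5) encodes p57, a Cip/Kip inhibitor that is imprinted and known from development. It stood at 0.0942, 0.133 and 0.189 in young muscle and at 0.198, 0.446 and 0.684 in aged muscle, without overlap. The change was 1.09 (SE 0.139, adjusted p = 3.47e-07), and in treated muscle the level (0.192, 0.375 and 0.533) was again above every young library, at 0.94 over the young (adjusted p = 9.32e-06). Against the aged group the treated change was -0.15 (95% interval -0.45 to 0.15, adjusted p = 0.605).

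**Figure D1:**
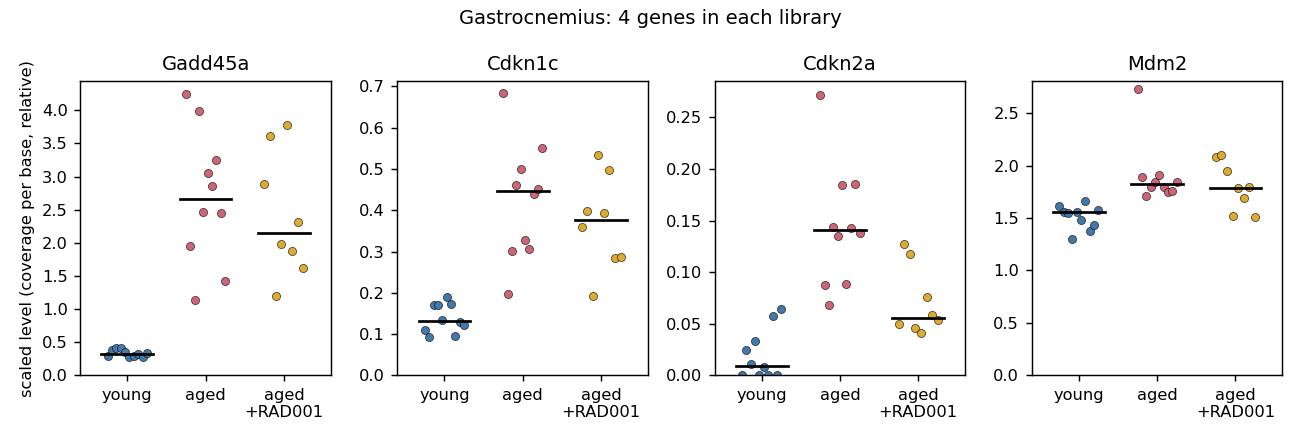
Scaled level (coverage per base, relative) of Gadd45a, Cdkn1c, Cdkn2a and Mdm2 in each gastrocnemius library (points; black lines are group medians; 10 young, 10 aged and 8 RAD001-treated aged libraries). All aged libraries lie above all young ones in each panel, and Cdkn2a is the only one of the 4 that was called between treated and aged libraries.

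Cdkn2a encodes the INK4 inhibitor p16 and, in another reading frame, p19Arf, which blocks Mdm2. It was the only member called between treated and aged muscle. In the tables its locus spans 244251 bases (chromosome 5, 111556969 to 111801220, minus strand, rn5) and overlaps Mtap on the plus strand. No source used here states that strand was used in counting, so reads of Cdkn2a and Mtap cannot be told apart where they overlap. In young muscle 4 of 10 libraries were at 0 and the highest reached 0.0643. Aged muscle held 0.068, 0.141 and 0.272, and treated muscle 0.0415, 0.0559 and 0.127. All aged libraries lay above all young ones, and 5 of the 8 treated libraries lay below every aged one. The change with age was 1.02 (SE 0.126, adjusted p = 1.92e-07). Treated minus aged was -0.50 (SE 0.133, adjusted p = 0.0344), and treated minus young was 0.52 (adjusted p = 0.00273). The gene passed the low-value filter through 7 aged, 2 treated and no young libraries. Its passing thus favoured a rise with age, a lower level in treated than in aged libraries and a higher level in treated than in young ones. None of these is counted as support.

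The fall of Cdkn2a in treated muscle lay close to the threshold. It was no longer called without a filter (adjusted p = 0.0584), without scaling (-0.55, adjusted p = 0.069) or with a pseudocount of 0.01 (-0.93, adjusted p = 0.15). Leaving out any one of aged libraries 1, 6 and 9 or treated libraries 1, 5, 6, 8 and 9 also ended the call, at changes from -0.43 to -0.49.

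The p53 partners and the apoptosis gene rose less in aged muscle. Mdm2, the ubiquitin ligase that marks p53 for breakdown and is itself a p53 target, stood at 1.30, 1.55 and 1.66 in young and 1.71, 1.82 and 2.73 in aged muscle. The groups did not overlap, and aged library 1, at 2.73, stood far above the next at 1.91. The change was 0.30 (SE 0.0683, adjusted p = 0.000733), or 0.25 without that library, and in treated muscle 0.24 over the young (adjusted p = 0.0111). Bax, which opens mitochondria in apoptosis, rose by 0.37 with age (SE 0.0955, adjusted p = 0.00304), from 0.114, 0.230 and 0.263 to 0.215, 0.292 and 0.385. The Bax groups overlapped, with 7 of 10 aged libraries above every young one. Treated minus young was 0.31 for Bax (adjusted p = 0.0175), or 0.25 without treated library 6 (adjusted p = 0.0531). With 7SL RNA as a covariate, described with the kidney results, the age change of Bax was 0.29 (adjusted p = 0.0979).

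Gadd45g, a Gadd45 family member also tied to cytokine signalling, stood at 0.428, 0.613 and 0.859 in young, 0.674, 0.944 and 1.17 in aged and 0.473, 0.720 and 0.875 in treated muscle. The groups overlapped, with 6 of 10 aged libraries above every young one. It rose by 0.50 with age (SE 0.115, adjusted p = 0.00101), and treated minus aged was -0.33 (95% interval -0.57 to -0.08, adjusted p = 0.123).

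Ccng1, cyclin G1, is a p53 target that recruits a phosphatase to Mdm2. Its scaled level in young gastrocnemius was 39.4, 42.7 and 46.5. On one scale set over all 84 libraries its median was 53.7 in young gastrocnemius and 2.89 in young kidney and 2.05 in young liver, and no library of gastrocnemius overlapped any of the other tissues. Ccng1 did not pass the test with age (-0.07, 95% interval -0.16 to 0.02, adjusted p = 0.203). It was lower in treated than in young muscle by a small amount (-0.15, adjusted p = 0.0119), which was not called without scaling (-0.07, adjusted p = 0.604). Cdkn1b, which encodes p27, the Cip/Kip inhibitor of resting cells, was not called in any comparison of muscle. Its change with age was -0.10 (95% interval -0.24 to 0.05, adjusted p = 0.32), and -0.15 (adjusted p = 0.043) without young library 3. Gdf15, a secreted stress hormone and p53 target, lay below the filter. It was above 0 in 4 of 10 young, 10 of 10 aged and 6 of 8 treated muscle libraries, with a highest level of 0.0966. Its mean rose from 0.00868 ± 0.0143 to 0.0366 ± 0.0239 (SD, n = 10 each; two-sided exact permutation test, p = 0.00224, one of 12 such tests; adjusted p = 0.0133 in a limma fit without the filter).

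Of the 9 members tested in gastrocnemius, 7 were called higher with age and none lower, beside 35.4% of all genes called (17.0% higher). Without Cdkn2a, whose passing of the filter favoured the difference, these were 6 of 8. The groups did not overlap for Cdkn1a, Cdkn1c, Mdm2 and Gadd45a, and for Cdkn2a with the same limit, beside 3.01% of all genes not overlapping and higher. The median log2 change of all 9 tested members, Cdkn2a included with the same limit, was 0.50 against 0.00 over all genes tested. The members were chosen with earlier results of these data known, so this median is not counted as support. Treated minus aged called 1 of 9, Cdkn2a, beside 3.37% of all genes (1.65% lower), and the filter favoured that call too. Treated minus young called 6 higher and 1 lower, beside 36.5% (17.9% higher and 18.6% lower). Cdkn2a was among the 6, and the filter favoured its call there as well. The groups did not overlap for Cdkn1a, Cdkn1c and Gadd45a, beside 3.12% of all genes not overlapping and higher. In each tissue the aged minus young and treated minus aged comparisons share the aged vehicle libraries.

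Markers of other cells and states moved in the same muscles, and their part in these changes was not tested. Of 12 tested genes of muscle that has lost its nerve supply, 11 were higher with age and 1 lower (median 1.69), and none was called with RAD001. Their summed level was 8.10 to 12.5 in young, 40.6 to 88.4 in aged and 34.7 to 77.4 in treated libraries. Among them Sln, the calcium pump inhibitor sarcolipin, rose by 3.93, Myog, the muscle transcription factor myogenin, by 2.24 and Ncam1, a cell adhesion molecule, by 1.86 (adjusted p = 1.44e-16, 4.35e-12 and 4.35e-12). Of 13 macrophage markers 10 were higher with age, and their sum went from 9.71 to 11.5 in young to 13.0 to 17.4 in aged libraries. The 5 genes most alike to Cdkn1a by Pearson correlation of log2 levels over the 28 muscle libraries were Tmem158 (0.99), Tubb6 (0.99), Ncam1 (0.99), Chrnd (0.98) and Gadd45a (0.98). With group means taken out these correlations were 0.84, 0.75, 0.85, 0.74 and 0.88.

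**Figure D2:**
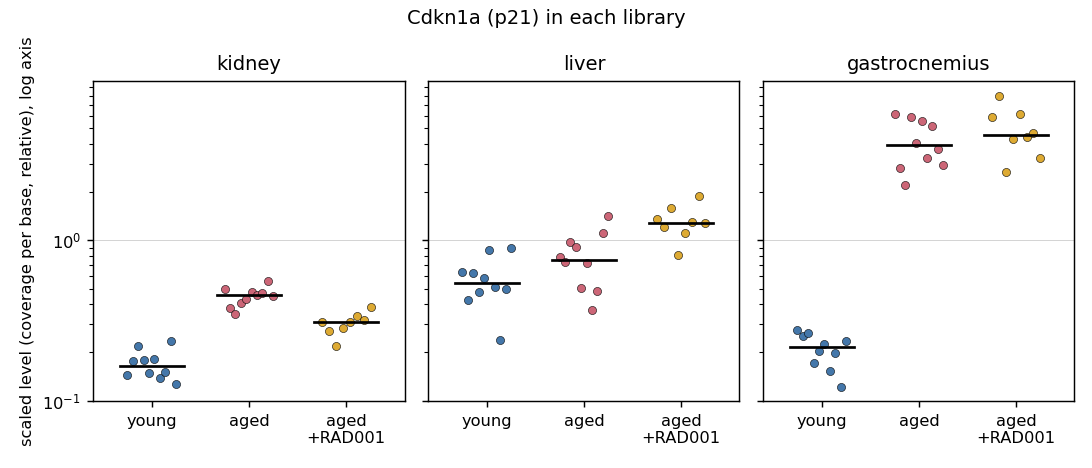
Scaled level of Cdkn1a (coverage per base, relative, log axis) in each library of kidney, liver and gastrocnemius by group (points; black lines are group medians). Aged and treated muscle libraries lie above 2.2 and young ones below 0.28, kidney treated medians lie between those of the other groups with some overlap, and liver libraries overlap between groups. Levels were scaled within each tissue.

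In kidney, p21 and p57 rose with age and then parted under RAD001: p21 was lower in treated than in aged kidneys and p57 higher still. Cdkn1a stood at 0.128, 0.164 and 0.236 in young kidneys and at 0.349, 0.456 and 0.557 in aged ones, without overlap. Treated kidneys held 0.219, 0.310 and 0.386, with 7 of 8 below every aged library and 7 of 8 above every young one. The change with age was 1.02 (SE 0.0767, adjusted p = 2.96e-10). Treated minus aged was -0.44 (SE 0.0813, adjusted p = 0.000176), and treated minus young 0.58 (SE 0.0813, adjusted p = 4.63e-06). Cdkn1c stood at 0.472, 0.615 and 0.742 in young, 0.754, 0.850 and 1.18 in aged and 0.936, 1.08 and 1.33 in treated kidneys. The change was 0.45 with age (SE 0.0735, adjusted p = 1.68e-05), 0.27 for treated minus aged (SE 0.078, adjusted p = 0.00852) and 0.72 for treated minus young (SE 0.078, adjusted p = 6.11e-08). All treated libraries lay above all young ones and above the aged median.

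Cdkn2a in kidney was at or near 0. It was above 0 in 1 of 10 young, 9 of 10 aged and 2 of 8 treated libraries, with a highest level of 0.0653 in aged library 5. The mean was 0.00106 ± 0.00335 in young, 0.0211 ± 0.0181 in aged (SD, n = 10 each) and 0.00236 ± 0.0044 in treated kidneys (SD, n = 8). The two-sided exact permutation test gave p = 0.000336 for aged against young, 0.00327 for treated against aged and 0.559 for treated against young. In a limma fit without the filter the adjusted p-values were 0.000771, 0.00407 and 0.891. Treated kidneys were sequenced less deeply than aged ones (median relative depth 0.940 against 1.10), which bears on levels this near 0. The overlap of the locus with Mtap, described for muscle, applies here too. Summed macrophage markers in the same kidneys ran from 16.9 to 26.7 in young, 28.1 to 79.7 in aged and 24.2 to 46.0 in treated libraries. The part of macrophages in the Cdkn2a levels was not tested.

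Among the p53 targets, Ccng1 rose in aged kidney from 3.74, 4.14 and 4.83 to 4.73, 5.07 and 5.78. The groups overlapped by little, with 8 of 10 aged libraries above every young one. The change was 0.28 (SE 0.0514, adjusted p = 8.32e-05), and treated kidneys stood 0.34 above young ones (adjusted p = 3.14e-05) and 0.06 above aged ones (adjusted p = 0.379). Mdm2 did not pass with age (0.08, adjusted p = 0.159) and was lower by 0.13 log2 units in treated than aged kidneys (log2 change -0.13, SE 0.0511, adjusted p = 0.0422). That call was lost when any of 11 libraries was left out: aged 1, 2, 7, 9 and 10 and treated 1, 2, 3, 6, 7 and 9, at changes from -0.10 to -0.14. Gdf15 (0.44 with age, SE 0.214, adjusted p = 0.102; -0.11 for treated minus aged, adjusted p = 0.748), Bax (0.04 with age, adjusted p = 0.735) and Cdkn1b (-0.06, adjusted p = 0.522) were not called.

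Gadd45a did not pass with age in kidney (0.04, adjusted p = 0.715), where its level was 1.79, 2.15 and 2.43 in the young group. It was higher in treated kidneys (2.31, 2.45 and 3.51) than in aged ones (1.87, 2.12 and 2.96) by 0.22 (SE 0.0789, adjusted p = 0.0291). The groups overlapped, and treated library 8 stood apart at 3.51. Without it the treated minus aged change was 0.16 (adjusted p = 0.0856), without treated library 6 it was 0.21 (adjusted p = 0.056) and without aged library 4 it was 0.20 (adjusted p = 0.059). Treated minus young was 0.26 (adjusted p = 0.016).

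Of the 9 members tested in kidney, 4 were called with age (Cdkn1a, Cdkn1c and Ccng1 higher, Gadd45g lower), beside 43.0% of all genes (20.8% higher and 22.2% lower), a share near that background. The groups did not overlap for Cdkn1a and Cdkn1c, beside 1.75% of all genes not overlapping and higher. Treated minus aged called 4 (Cdkn1c and Gadd45a higher, Cdkn1a and Mdm2 lower), beside 37.4% (18.3% higher and 19.1% lower). For treated minus young 4 were called (Cdkn1a, Cdkn1c, Ccng1 and Gadd45a), all higher, beside 26.5% (12.0% higher), and the groups did not overlap for Cdkn1c and Ccng1, beside 1.53% of all genes not overlapping and higher. With the library's level of 7SL, the RNA of the signal recognition particle, as a covariate, none of the 4 treated minus aged calls remained. Cdkn1a was then at -0.30 (adjusted p = 0.195) and Cdkn1c at 0.23 (adjusted p = 0.344). Calls over all genes dropped from 3910 to 459 in that fit. The 7SL level as deposited ran from 22242 to 30427 in aged and from 27814 to 40949 in treated kidneys. The 7 muscle-defining markers summed to at most 0.109 in young and aged kidneys and reached 7.26 in a treated one, against 2578 and more in muscle. Markers of immune cells and of injured tubules moved in the directions of Cdkn1a: 13 of 13 macrophage, 9 of 9 T cell and 11 of 11 tubular injury markers were higher with age, and 11, 8 and 10 of them were lower with RAD001. Of 6 endothelial markers 3 were lower with age in kidney, 1 in liver and 3 in gastrocnemius, and none was higher. Of 8 podocyte markers in kidney 3 were higher with age, of 5 erythroid markers none was called, and of 3 satellite cell markers in gastrocnemius 1 was higher and 1 lower. The part of these cells in the change of Cdkn1a was not tested.

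The 5 kidney genes most alike to Cdkn1a over the 28 libraries were RT1-DMb (r = 0.91), Abca8a (0.90), Clec10a (0.88), Hspb1 (0.88) and Tmem176a (0.87). With group means taken out these correlations were 0.42, 0.33, 0.38, 0.59 and 0.36, and the libraries share depth and tissue make-up.

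**Figure D3:**
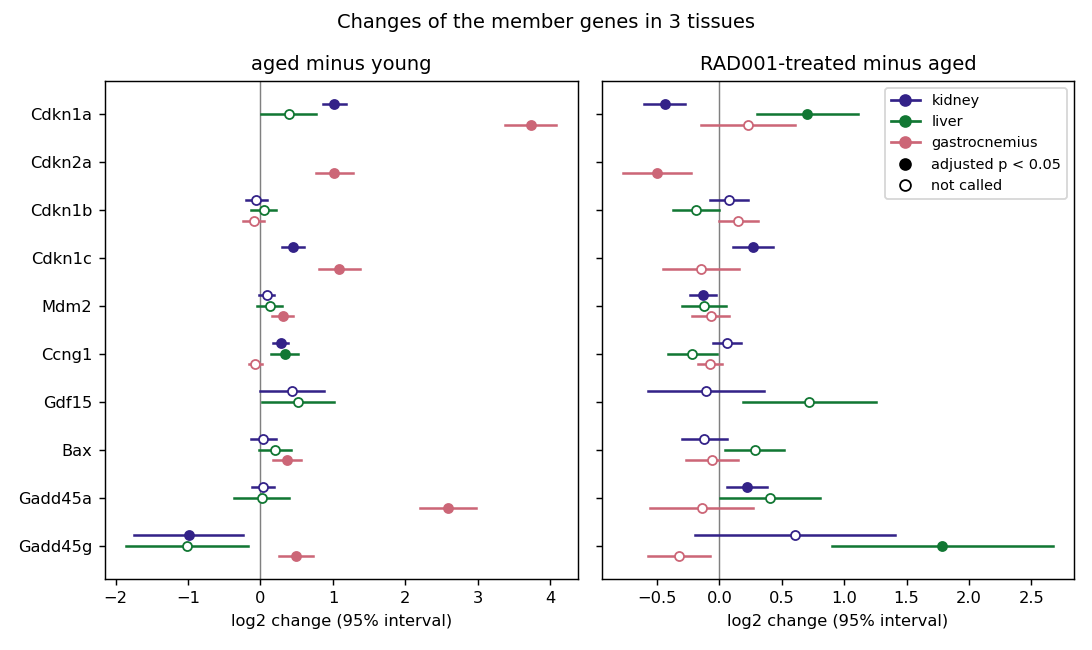
Log2 change of each member (points, with 95% intervals) for aged minus young libraries (left) and RAD001-treated minus aged libraries (right) in kidney, liver and gastrocnemius; filled points have an adjusted p under 0.05. Members below the low-value filter in a tissue are not drawn. Cdkn1a and Gadd45a in gastrocnemius lie at 3.73 and 2.59 on the left and at 0.23 and -0.14 on the right.

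In liver p21 was higher in treated than in aged or young rats, and Gdf15 and Bax were higher in treated than in young livers. Cdkn1a stood at 0.238, 0.544 and 0.891 in young, 0.366, 0.759 and 1.42 in aged and 0.810, 1.29 and 1.89 in treated livers. Young and aged libraries overlapped widely (0.39, SE 0.186, adjusted p = 0.153), while all 8 treated libraries lay above the aged median. The treated minus aged change was 0.70 (SE 0.197, adjusted p = 0.0173), or 0.54 (adjusted p = 0.101) with 7SL as a covariate. Treated minus young was 1.10 (SE 0.197, adjusted p = 0.000127), with 7 of 8 treated libraries above every young one.

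Gdf15 stood at 0.0626, 0.218 and 0.466 in young, 0.188, 0.331 and 0.717 in aged and 0.340, 0.647 and 1.64 in treated livers. The groups overlapped, with 5 of 8 treated libraries above every young one. Treated minus young was 1.24 (SE 0.261, adjusted p = 0.000681). Treated minus aged missed the threshold at 0.72 (SE 0.261, adjusted p = 0.0564), and it was called when young library 4, aged library 9 or 10 or treated library 1 or 9 was left out, at changes from 0.72 to 0.83. Bax stood at 0.265, 0.415 and 0.527 in young and 0.431, 0.572 and 0.796 in treated livers, and 6 of 8 treated libraries lay above every young one. Treated minus young was 0.48 (SE 0.116, adjusted p = 0.00211), treated minus aged 0.28 (adjusted p = 0.0859) and aged minus young 0.20 (adjusted p = 0.233).

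Ccng1 was the member called with age in liver. It stood at 1.42, 1.71 and 2.38 in young and 1.58, 2.30 and 2.70 in aged livers, overlapping, with a change of 0.33 (SE 0.0908, adjusted p = 0.0108). In treated livers it lay at 1.52, 1.96 and 2.16. The treated minus aged change was -0.22 (95% interval -0.41 to -0.02, adjusted p = 0.113), and -0.27 (adjusted p = 0.0352) without aged library 5. Mdm2 (0.12 with age, adjusted p = 0.325; -0.13 for treated minus aged, adjusted p = 0.316) and Cdkn1b (0.04, adjusted p = 0.789; -0.19, adjusted p = 0.146) were not called.

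**Figure D4:**
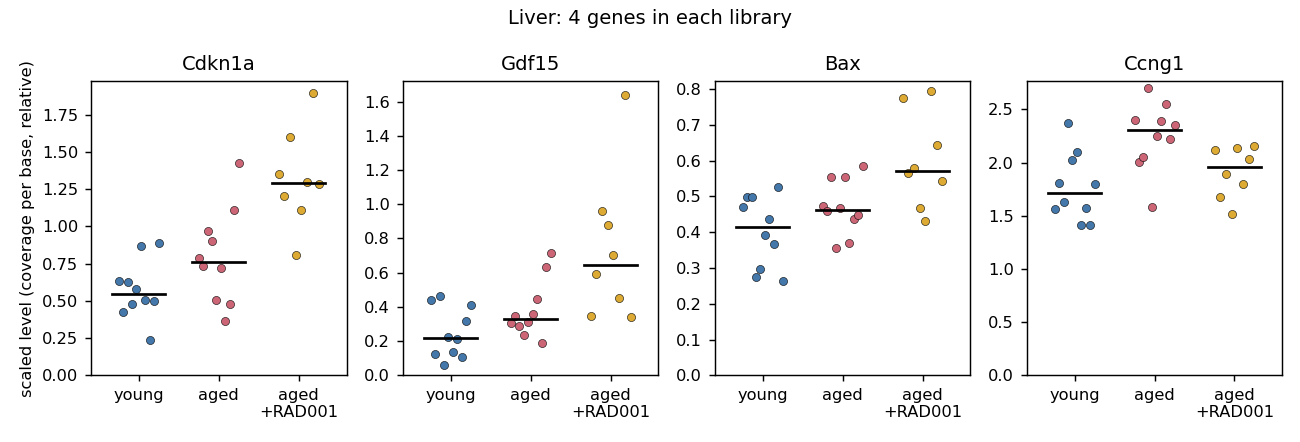
Scaled level (coverage per base, relative) of Cdkn1a, Gdf15, Bax and Ccng1 in each liver library (points; black lines are group medians; 10 young, 10 aged and 8 RAD001-treated aged libraries). Treated medians are the highest for Cdkn1a (1.29), Gdf15 (0.647) and Bax (0.572), and the aged median is the highest for Ccng1 (2.30).

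Cdkn1c and Cdkn2a were below the filter in liver. Cdkn1c stood at 0.0239, 0.0362 and 0.0728 in young, 0.0282, 0.0694 and 0.0828 in aged and 0.0443, 0.0797 and 0.148 in treated livers. Treated against young gave p = 0.00105 in the two-sided exact permutation test (adjusted p = 0.00193 in the fit without the filter), and aged against young gave p = 0.0141 (adjusted p = 0.129). Cdkn2a was above 0 in 2 of 10 young, 7 of 10 aged and 5 of 8 treated livers and nowhere above 0.0141. The exact permutation p-values were 0.0108, 0.5 and 0.0656 for aged against young, treated against aged and treated against young, and the first was not called without the filter (adjusted p = 0.0599).

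Of the 8 members tested in liver, 1 was called with age (Ccng1, higher), beside 16.6% of all genes (7.86% higher). Treated minus aged called 2 (Cdkn1a and Gadd45g, both higher), beside 15.7% (7.62% higher), and treated minus young 3 (Cdkn1a, Gdf15 and Bax, all higher), beside 34.9% (17.0% higher). In all of these liver comparisons few members were called, and the count with age and the treated minus young count lay near the background in either direction. The 5 liver genes most alike to Cdkn1a over the 28 libraries were RT1-CE6 (r = 0.81), Rhob (0.79), Aen (0.79), Fth1 (0.78) and Jam3 (0.78), of which Aen, a nuclease induced by p53, was on the list of other p53 targets. Macrophage markers were higher with age for 6 of 12 tested and for none with RAD001, and their sum ran from 19.0 to 31.8 in aged and from 23.8 to 34.2 in treated livers.

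Gadd45g (chromosome 17, 15469296 to 15471042, minus strand, rn5) varied widely between libraries of 1 group in kidney and liver. In young kidneys it ran from 0.629 over a median of 1.66 to 5.25, with libraries 4, 5 and 6 at 3.48, 3.24 and 5.25. In young livers it ran from 0.421 over 0.996 to 4.72, and libraries 4, 5 and 6 stood at 2.28, 2.45 and 4.72, with library 9 at 2.28. Aged kidneys (0.568, 0.726 and 1.10) and aged livers (0.207, 0.522 and 1.64) were less spread. In the treated group, libraries 5 and 6 held 4.59 and 4.85 in kidney and 8.08 and 6.40 in liver. The other 6 treated libraries stayed at 0.683 to 0.853 in kidney and 0.777 to 2.20 in liver. The labels give no date or batch, and whether libraries of equal number in these tissues come from 1 rat is not stated.

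In muscle the spread was small. Young libraries 4, 5 and 6 were at 0.651, 0.731 and 0.859 within a range of 0.428 to 0.859, and treated libraries 5 and 6 were the highest of their group at 0.875 and 0.849, next to one at 0.831. Liver Gadd45a was also highest in treated libraries 5 and 6, at 1.69 and 1.74, against 0.554 to 0.929 in the other 6. It was called neither with age in liver (0.02, adjusted p = 0.963) nor for treated minus aged (0.40, adjusted p = 0.15). The age change of Gadd45g was -0.99 in kidney (SE 0.368, adjusted p = 0.030) and -1.01 in liver (SE 0.409, adjusted p = 0.0887). In kidney it was lost without young library 4 (-0.87, adjusted p = 0.0617), 5 (-0.88, adjusted p = 0.0599) or 6 (-0.81, adjusted p = 0.0691), and in liver it was called without aged library 1 (-1.18, adjusted p = 0.0479). Treated minus aged was 0.60 in kidney (adjusted p = 0.227) and 1.79 in liver (SE 0.434, adjusted p = 0.00946). All 8 treated livers lay above the aged median, and without treated libraries 5 and 6 the liver change was 1.21 (adjusted p = 0.0503) and the kidney change -0.02 (adjusted p = 0.967). That leaving-out was chosen after seeing the values.

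**Figure D5:**
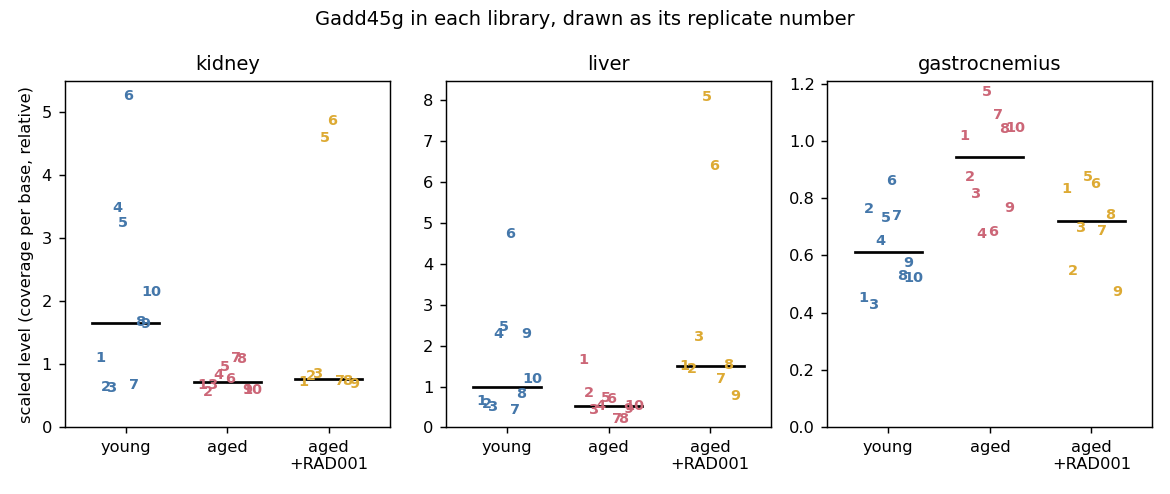
Scaled level of Gadd45g (coverage per base, relative) in each library of kidney, liver and gastrocnemius by group, each drawn as its replicate number (black lines are group medians). Numbers 4, 5 and 6 among young and 5 and 6 among treated libraries are the highest in kidney; in liver the highest are 6 among young and 5 and 6 among treated. In gastrocnemius 6 among young and 5 and 6 among treated are also highest, without a gap to the rest.

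The age and treatment effects of some members differed between tissues. In a joint limma fit over the 84 libraries and 11365 genes, the age change of Cdkn1a in gastrocnemius exceeded that in kidney (kidney minus gastrocnemius -2.71, SE 0.227, adjusted p = 1.16e-16) and that in liver by more (liver minus gastrocnemius -3.34, adjusted p = 1.73e-21). The kidney age change exceeded the liver one by 0.63 (SE 0.227, adjusted p = 0.0288), and it did so by 0.24 (adjusted p = 0.306) with a pseudocount of 0.5. For Gadd45a the kidney and liver age changes lay below that of gastrocnemius (-2.55 and -2.57, adjusted p = 1.26e-14 and 4.39e-15). Cdkn1c (-0.64 and -0.87, adjusted p = 0.000624 and 4.9e-06) and Cdkn2a (-0.77 and -0.93, adjusted p = 2.86e-07 and 1.67e-09) also lay below, Cdkn2a with the limit that it passed the filter through gastrocnemius libraries. Ccng1 went the other way, with age changes 0.35 and 0.41 higher in kidney and liver than in muscle (adjusted p = 0.0018 and 0.000392).

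The treated minus aged changes of Cdkn1a had opposite signs in kidney and liver, and their difference was -1.14 (kidney minus liver, SE 0.241, adjusted p = 0.000193). It was -0.67 for kidney minus gastrocnemius (adjusted p = 0.0327), which was not called without scaling (-0.62, adjusted p = 0.0605) or with a pseudocount of 0.5 (-0.45, adjusted p = 0.0537). Bax (-0.40, adjusted p = 0.0339), Gdf15 (-0.83, adjusted p = 0.0353) and Ccng1 (0.28, adjusted p = 0.0242) also differed between kidney and liver, close to the threshold. None of these genes was called for treated minus aged in kidney or in liver alone. Fewer kidney against liver differences were called without scaling or with a pseudocount of 0.01. For Gadd45g the treated minus aged change was 1.79 in liver and -0.33 in muscle, the latter not called. The signs were opposite, and the difference was 2.11 (liver minus gastrocnemius, adjusted p = 0.00822). Without the highest treated libraries, named with the Gadd45g levels above, the liver change was 1.21 (adjusted p = 0.0503). The difference between liver and muscle was not tested without those libraries. Of 60 such differences over the 10 members, 20 were called. They include those of Cdkn2a against gastrocnemius, with the limit of the filter given above. Only Cdkn1a was called for age between kidney and liver and for RAD001 between kidney and gastrocnemius, each below the share of all genes. By comparison the share of all genes was 29.1%, 33.6% and 23.8% for age (kidney against liver, kidney against gastrocnemius, liver against gastrocnemius) and 28.5%, 24.5% and 6.24% for RAD001.

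Ordered by median level on one scale over all 84 libraries, Cdkn1a was highest in treated and aged gastrocnemius (5.49 and 4.77), which overlapped each other and no other group. Liver followed (1.51 treated, 0.896 aged, 0.651 young, each overlapping the next), then aged kidney (0.308), young gastrocnemius (0.271), treated kidney (0.215) and young kidney (0.114), all overlapping their neighbours. Gadd45a was highest in aged and treated gastrocnemius (3.23 and 2.61) and lowest in young gastrocnemius (0.409), with kidney and liver groups between. Cdkn1c was highest in treated kidney (0.747) and lowest in young liver (0.0434). Gdf15 was highest in treated liver (0.762) and lowest in young gastrocnemius, where the median library was at 0. Medians of Mdm2, Cdkn1b and Bax varied less between groups than those of the genes above. Mdm2 ran from 0.897 in treated kidney to 2.21 in aged gastrocnemius, and every gastrocnemius library lay above every kidney and liver library. Cdkn1b ran from 0.643 in treated liver to 1.34 in young gastrocnemius and Bax from 0.289 in young gastrocnemius to 0.670 in treated liver.

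Other genes of these pathways were read from fixed lists. The shares of all genes printed with the p53 targets hold for the other lists too. Of other p53 targets, 19 were tested in kidney, and 7 were higher and 1 lower with age. Over all kidney genes 43.0% were called (20.8% higher and 22.2% lower), so the count in either direction lay near that background. The higher targets included Phlda3, an inhibitor of Akt (0.64, adjusted p = 3.59e-07), Pmaip1, the BH3-only protein Noxa (0.94, adjusted p = 1.82e-06), Btg2, an antiproliferative gene (0.63, adjusted p = 8.48e-06), and the death receptor Fas (0.49, adjusted p = 0.00023). With RAD001, 4 of the 19 were higher and 7 lower (37.4% of all genes called), Btg2 at -0.48 (adjusted p = 0.000672) and Perp, a desmosome protein, at 0.38 (adjusted p = 3.1e-05). In liver 16 were tested, with 3 higher and 2 lower with age (Fas 0.77, adjusted p = 7.43e-08), beside 16.6% of all genes called. With RAD001 3 were higher and 2 lower, beside 15.7% (Phlda3 0.73, adjusted p = 0.00363, and Aen 0.36, adjusted p = 0.0153). In gastrocnemius 14 were tested, with 5 higher and 5 lower with age (35.4% of all genes called) and none called with RAD001 (3.37% of all genes). Among those called with age were Phlda3 (1.44, adjusted p = 3.81e-11) and Sesn1, which restrains mTORC1 (-0.46, adjusted p = 2.49e-06).

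Mdm4, the partner of Mdm2, rose with age in gastrocnemius by 0.37 (adjusted p = 7.9e-06). Of other inhibitors and pocket proteins, 2 of 4 tested were higher and none lower with age in gastrocnemius, and 1 of 3 was higher and 1 lower in liver. Cdkn2b, which encodes p15 and neighbours Cdkn2a, rose in aged gastrocnemius by 1.01 (adjusted p = 2e-10) and in aged liver by 0.62 (adjusted p = 6.38e-05). Rb1, the retinoblastoma protein, rose with age in gastrocnemius by 0.36 (adjusted p = 4.4e-06) and with RAD001 by a further 0.26 (adjusted p = 0.0129), and in treated kidney by 0.22 (adjusted p = 0.0003), and it was lower in aged liver (-0.26, adjusted p = 0.00586). None of the 4 inhibitors and pocket proteins tested in kidney was called with age.

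Of genes of proliferation, 7 of 9 tested in kidney were higher with age (20.8% of all genes), such as the mitotic kinase Cdk1 (0.54, adjusted p = 0.00143). With RAD001 3 of the 9 were lower (19.1% of all genes), Cdk1 by 0.75 log2 units (-0.75, adjusted p = 0.000192). None of 5 was called with age or with RAD001 in liver, and 1 of 4 was called with age in gastrocnemius (Pcna, 0.16, adjusted p = 0.03). Of G1 cyclins and kinases in gastrocnemius, 2 of 5 were higher and 3 lower with age, with Ccnd3, cyclin D3, at -0.46 (adjusted p = 3.09e-08) and Cdk6 at 0.38 (adjusted p = 0.00453). Of Gadd45b, Gadd45gip1 and the MAP kinases Map3k4 and Mapk14, all 4 were lower in aged gastrocnemius, Gadd45b by 0.41 log2 units (-0.41, adjusted p = 0.00702). In aged kidney Gadd45b was higher (0.47, adjusted p = 1.31e-05), and Mapk14 and Map3k4 were lower (-0.25 and -0.24, adjusted p = 0.000164 and 0.000218). Of the BCL2 family, Bak1, the relative of Bax, was higher in aged kidney (0.68, adjusted p = 4.08e-05) and lower in treated kidney (-0.66, adjusted p = 0.000215). In aged gastrocnemius the protective Bcl2l1 was higher (0.34, adjusted p = 0.000122), one of 2 of 7 called.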

How the data were processed

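Total RNA from 84 tissue samples was sequenced, in 3 groups of each of 3 tissues. The reads were aligned with STAR 2.4.5a to rn5, per the submitters' processing notes; the counting tool and its use of strand are not given in the sources used here. Each deposited table gives a signal per locus: as its numbers show, average coverage of a base by reads, multiplied by one factor per library. For 59 to 152 short loci per library value times length came out as whole multiples of 1 step (tolerance 1e-04) in 100% of cases. Numbers of reads were not recovered, so no count test was run.

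From these, trimmed-mean factors (30% trimmed on each side) were computed within each tissue, genes were kept if 8 or more libraries reached 0.1 (10447 in kidney, 8991 in liver, 8836 in gastrocnemius), and log2(value + 0.1) was tested with limma 3.58.1 in R 4.3.3, with 3 group means and trend, and Benjamini-Hochberg adjustment over all genes per tissue and comparison. Of the 10 members, 9, 8 and 9 passed. Members below the filter were tested by exact permutation of their means. Differences between tissues came from a joint fit over 84 libraries. Tables were handled in Python 3.11.15 with pandas 2.3.3 and NumPy 2.4.6, and the fit was tested on simulated data. Alternatives were 3 other scalings, 2 filters, 2 pseudocounts, a replicate block, 2-group fits, quality weights, a 7SL covariate and each library left out. The members and gene lists were chosen with earlier results of these data known. Named list genes are among up to 4 called genes with the smallest adjusted p per list, tissue and comparison. The most-alike genes are the 5 named genes with the highest Pearson correlation to the member with the smallest adjusted p, Cdkn1a in each tissue. Not every count of every list is reported here.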

Additional observations from a re-analysis of the deposited data

Results flagged for a closer look

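Single libraries far from the rest of their group were found in 9 of 90 groups examined. In kidney these were young library 7 for Cdkn2a (0.0106, the others at 0), aged library 5 for Cdkn2a (0.0653), aged library 1 for Bax (1.08), aged library 7 for Gadd45a (2.96) and treated library 8 for Gadd45a (3.51). In liver they were young library 6 (4.72) and aged library 1 (1.64), both for Gadd45g. In gastrocnemius aged library 1 stood apart both for Mdm2 (2.73) and for Gdf15 (0.0966). Chance marks about 1 in 20 groups of normally distributed values, which these levels need not be. That rate does not hold for groups mostly at 0, so 9 of 90 is not read as an excess.

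Of 60 differences between tissues, 20 had an adjusted p under 0.05 in the joint limma fit. Each is given here as the log2 change in the first tissue minus that in the second. Over all genes, 29.1% were called for age in kidney against liver, 33.6% in kidney against gastrocnemius and 23.8% in liver against gastrocnemius. For treated minus aged these shares were 28.5%, 24.5% and 6.24%. For age, kidney minus liver was 0.63 for Cdkn1a. Kidney minus gastrocnemius was -2.71 for Cdkn1a, -2.55 for Gadd45a, -1.49 for Gadd45g (adjusted p = 0.0117), -0.77 for Cdkn2a, -0.64 for Cdkn1c and 0.35 for Ccng1. Liver minus gastrocnemius was -3.34 for Cdkn1a, -2.57 for Gadd45a, -1.51 for Gadd45g (adjusted p = 0.0141), -0.93 for Cdkn2a, -0.87 for Cdkn1c and 0.41 for Ccng1. Cdkn2a was near 0 in kidney and liver and passed the filter through gastrocnemius libraries.

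For treated minus aged, kidney minus liver was -1.14 for Cdkn1a, -0.83 for Gdf15, -0.40 for Bax and 0.28 for Ccng1. Kidney minus gastrocnemius was -0.67 for Cdkn1a. Liver minus gastrocnemius was 2.11 for Gadd45g and 0.47 for Cdkn2a (adjusted p = 0.0157), the latter with the same limit of the filter.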

How the results depend on the processing

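No member called in any comparison changed sign under any alternative run. The number of members called moved by over 1.5 times in these cases. Kidney treated minus aged went from 4 to 2 without scaling, to 0 with 7SL as a covariate, and to 2 without treated libraries 5 and 6, with or without young 4 to 6. Liver aged minus young went from 1 to 2 without treated libraries 5 and 6, liver treated minus aged from 2 to 1 with 7SL, and liver treated minus young from 3 to 1 with a filter at 1. Gastrocnemius went from 7 to 3 (age) and from 7 to 4 (treated minus young) with the filter at 1, since fewer members were then tested, and treated minus aged from 1 to 0 without scaling, without a filter, with the filter at 1 or with a pseudocount of 0.01. Of the tissue differences in treated minus aged, kidney against liver went from 4 to 2 without scaling and with a pseudocount of 0.01, kidney against gastrocnemius from 1 to 0 without scaling and to 2 with a pseudocount of 0.5, and liver against gastrocnemius from 2 to 1 with a pseudocount of 0.01. With each library left out, the counts ranged from 2 to 4 (kidney treated minus aged), 1 to 2 (liver age) and 0 to 1 (gastrocnemius treated minus aged). Except where a fewer number tested is given, the cause was not tested.

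Within tissues the replicate numbers were not taken to pair the groups. The residuals of same-numbered libraries correlated at medians of -0.03, 0.06 and 0.03 (over 0.1 in 7, 10 and 8 of 26 pairs, so not in every pair). Across tissues, libraries of equal group and number correlated at medians of 0.16 (kidney and liver), 0.06 and 0.07 (gastrocnemius with kidney and with liver), over 0.1 in 22, 12 and 8 of 28, and correlated best with their own number in 16, 11 and 10 of 28. This is a hint that numbers link libraries across tissues, which the labels do not state, and the joint fit without a block treats those libraries as independent. The replicate block took 2 forms. Within a tissue it was a factor for the number, shared by the groups, and does not bear on a link across tissues. With it the count was 2 for liver age and 0 for gastrocnemius treated minus aged (Cdkn2a -0.46, adjusted p = 0.0897). Kidney treated Mdm2 was then not called (-0.12, adjusted p = 0.111). In the joint fit the block joined libraries of equal group and number across tissues. There the count was 2 for kidney against gastrocnemius in treated minus aged.

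Small changes that were not called changed sign. In kidney, age Bax (0.04) was -0.013 without young 4 to 6 and treated 5 and 6 and -0.0074 to 0.075 with libraries left out singly, age Gadd45a was -0.0078 to 0.063 and treated minus young Cdkn1b -0.020 to 0.050. Treated minus aged Gadd45g (0.60) was -0.021 without treated 5 and 6, both with and without young 4 to 6, and treated minus young Mdm2 (-0.05) was 0.023 with 7SL and 0.0038 without those 5 libraries. In liver, age Gadd45a was -0.059 to 0.091. Treated minus young Mdm2 (-0.00063) was 0.00047, 0.00057 and 0.011 with median-of-ratios, upper-quartile and no scaling, 0.00026 with a pseudocount of 0.01, 0.035 with the replicate block, 0.023 with quality weights, 0.043 with 7SL, 0.0029 with 2 groups, 0.066 without the 5 libraries and -0.035 to 0.039 with libraries left out singly. In gastrocnemius without scaling, age Cdkn1b (-0.10) was 0.045 and age Ccng1 (-0.07) 0.082; with 7SL Ccng1 was 0.016 and treated minus young Cdkn1b (0.06) -0.048, the latter -0.0030 to 0.093 with libraries left out singly. Of the differences between tissues, without scaling age kidney against gastrocnemius Cdkn1b was -0.050 and treated kidney against liver Mdm2 0.0021. With a pseudocount of 0.01, age Cdkn1c was -0.039 (kidney against liver), age Gdf15 -0.97 and -0.73 (kidney and liver against gastrocnemius), treated Cdkn1c -0.13 (kidney against liver) and treated Cdkn2a -0.28 (kidney against gastrocnemius). With a pseudocount of 0.5, age Gdf15 was 0.053 and age Gadd45g -0.059 (kidney against liver) and treated Gdf15 -0.045 (kidney against gastrocnemius). With quality weights, age Gadd45g was -0.12 and age Gadd45a -0.033 (kidney against liver).

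Over all genes, no scaling moved the share of higher calls to 62.8% from 48.4% (kidney age), 66.6% from 47.4% (liver age), 28.9% from 48.4% (liver treated minus aged), 85.9% from 48.0% (gastrocnemius age), 9.09% from 51.0% (gastrocnemius treated minus aged, 11 calls against 298) and 73.4% from 49.1% (gastrocnemius treated minus young). The depth in reads is unknown, and members near 0 rest on few reads.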
